A study of Emiliania huxleyi with 18 samples.

Results

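The day 10 cultures of the alga Emiliania huxleyi grown under weak UV were compared with the day 7 cultures grown the same way. The comparison rests on 6 of the 18 libraries of the series, chosen by their labels: UV day 10, replicates 1 to 3, and UV day 7, replicates 1 to 3. All cultures were of the axenic strain CCMP3266, in artificial sea water with L1 nutrients without silicate, in volumes of 50 ml started at 330 cells per ml. They stood at 18 °C in a daily cycle of 8 h without light and 16 h of growth light at 130 µmol photons per m2 per s. The UV cultures, on either day, received in addition UV-A at 0.5 W per m2, UV-B at 0.07 W per m2 and UV-C at 0.026 W per m2 from a lamp that ran 14 h per day. Control cultures of day 10 and day 7 (3 libraries each) had the growth light without the lamp, and they serve here to show the same interval without UV. Day 13 libraries of both arms (3 each) are used as levels.

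Emiliania huxleyi is a coccolithophore, a unicellular marine alga that covers itself with calcite scales and forms large ocean blooms. In a closed batch culture the cells divide until nutrients or light become limiting, so harvest day stands for culture age. UV-B is absorbed by nucleic acids and proteins, and algae are known to answer it with DNA repair, antioxidants and screening compounds. The comparison of days within the UV arm addresses how transcript levels moved over the first interval of culture ageing while the lamp was on. Cell densities and nutrient levels at harvest are not in the sources used here. In bulk RNA a change in the share of cells in a given state and a change in RNA per cell cannot be told apart.

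Transcripts were counted as unique molecular identifiers (UMIs), so that a molecule copied in amplification counts once. The files give each gene an identifier without a name or description, and 0 identifiers matched the reference gene table. Genes therefore appear by identifier, a few per comparison, and neither functions nor the labelled strain could be checked against known genes.

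The libraries differed in depth. UMI totals were 1699470, 1648083 and 5420491 in UV day 10 replicates 1, 2 and 3, against 1060640, 5547001 and 9216603 in UV day 7 replicates 1, 2 and 3. UV day 10 replicates 1 and 2 had 0.876 and 0.874 UMIs per read, while the ratio was 0.716 in UV day 10 replicate 3 and 0.706 to 0.723 in UV day 7 libraries. The same 2 replicates of the control arm stood apart in this way on day 10, with 0.870 and 0.876. No label names a batch, and no day 7 library had such a ratio. Results are therefore also given with replicate 3 alone standing for day 10. Log2 levels of replicates correlated across 18196 genes at 0.957 to 0.967 within UV day 10 and at 0.954 to 0.987 within UV day 7. Genes are not independent points in these values, and each lowest value involved a shallow library.

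Between day 7 and day 10 under UV, transcript levels moved widely and in both directions. Of 18196 genes tested, 6903 (37.9%) passed an adjusted p of 0.05 in edgeR's quasi-likelihood test. Of these, 3303 (18.2% of the genes tested) were higher and 3600 (19.8%) lower on UV day 10. Falls were the deeper changes. The median change was 1.58-fold for genes that rose and 1.82-fold for genes that fell. At least 2-fold changes were found for 707 risen genes (3.89% of the genes tested) and 1481 fallen genes (8.14%), and at least 4-fold changes for 94 and 396. The 3 UV day 10 libraries stood entirely above the 3 UV day 7 libraries for 3940 genes (21.7%) and entirely below them for 4076 (22.4%), and 2821 and 3228 of these also passed the test.

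The balance of rises and falls rested on the scaling. TMM, a trimmed mean of log ratios between libraries, set the scale here, and under it the median log2 change of all genes was 0.03. Scaling to total UMIs placed that median at 0.14, and then 4444 genes were higher and 2989 lower (59.8% higher, against 47.8%). Falls of at least 2-fold outnumbered such rises under either scaling, with 1262 against 952 under total-count scaling.

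The step was also seen within the deep and within the shallow libraries, which have no library in common. UV day 10 replicate 3 against UV day 7 replicates 2 and 3 gave 5036 genes in the same edgeR test, 2367 of them higher and 2669 lower. UV day 10 replicates 1 and 2 against UV day 7 replicate 1, all shallow, gave 1983 genes, 778 higher and 1205 lower. In these fits a lone library was assumed to vary like the libraries of the other groups. Both fits held the same libraries of the other groups, so only the UV libraries compared were separate. For the genes called higher in the deep fit the median log2 change was 0.78 in the deep and 0.64 in the shallow libraries. For those called lower it was -1.07 and -0.77. The deep libraries chose these genes, and over all 18196 genes the median in the shallow libraries was 0.04. With replicate 3 alone as day 10 in both arms, and so without the libraries of high UMIs per read, 5177 genes passed, 2200 higher and 2977 lower.

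**Figure D1:**
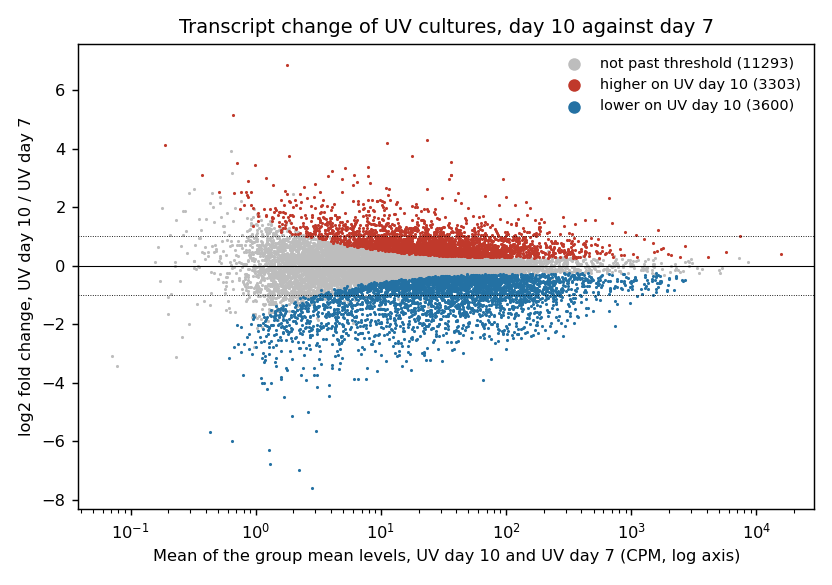
Each point is 1 of 18196 genes, placed by the mean of its UV day 10 and UV day 7 group levels (CPM, UMIs of a gene scaled to a common library size, log axis) and its log2 fold change (UV day 10 over UV day 7), with dotted lines at 2-fold. The 3303 genes called higher and 3600 called lower lie on both sides of 0, and 396 fallen against 94 risen genes lie beyond 4-fold.

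Falls outnumbered rises most among abundant transcripts. Levels are in CPM, the UMIs of a gene scaled to a common TMM-adjusted library size, and a CPM value says nothing about the length of a gene. Among 5546 genes with a mean of 1 to 10 CPM over the 6 UV libraries, 579 were higher and 747 lower on UV day 10. Among 10592 genes with a mean of 10 to 100 CPM over the 6 UV libraries, 2333 were higher and 2087 lower on UV day 10. Among 1664 genes of 100 to 1000 CPM, 355 were higher and 695 lower. Among the 124 genes of 1000 CPM or more, 18 were higher and 52 lower. Falls outnumbered rises in these upper classes under total-count scaling as well, with 611 against 466 and 45 against 28. In the class of 10 to 100 CPM the order turned with median-of-ratios scaling, which gave 2154 higher and 2200 lower, and with the shallow UV libraries alone, which gave 517 and 678. In the class of 1 to 10 CPM it turned with total-count scaling, which gave 762 higher and 622 lower, so these classes show no steady order. The share of genes called was 13.7% under 1 CPM and 63.1% between 100 and 1000 CPM.

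Among the genes called lower, large folds were less frequent at high levels. At 1000 CPM or more, 3 of the 18 risen and 1 of the 52 fallen genes changed at least 2-fold. That is 16.7% and 1.92% of them, against 21.4% of all risen and 41.1% of all fallen genes, and for rises the share was lower still at 10 to 100 CPM (12.9%) and at 100 to 1000 CPM (13.5%). The median log2 change in that class was 0.49 for risen and -0.52 for fallen genes, against 1.07 and -1.49 in the class of 1 to 10 CPM. These shares and medians cover called genes only. Under 1 CPM all 18 risen and all 19 fallen genes called had changed at least 2-fold, so no smaller change passed there. Over all genes of a class, called or not, the median was -0.01 at 1 to 10 CPM and -0.16 at 1000 CPM or more. Whether folds differ with level apart from this limit was not tested. Among the 10 most abundant genes, 4 rose and 0 fell, and among the 100 most abundant 15 rose and 40 fell.

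**Figure D2:**
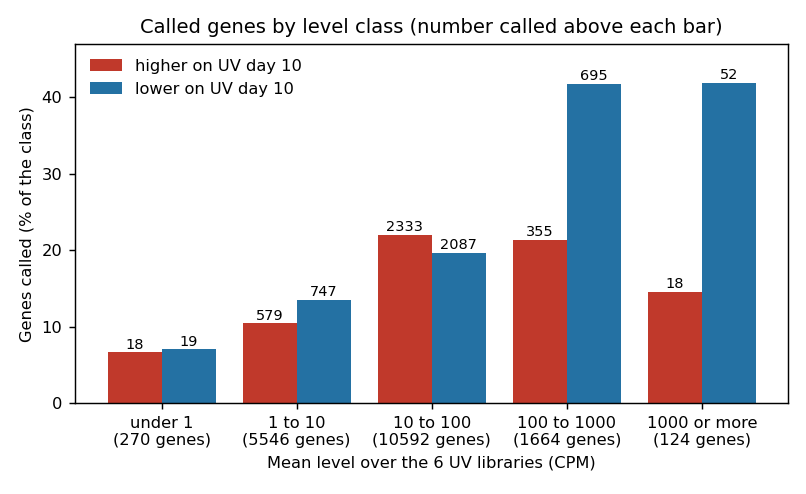
Bars give the percent of the genes of a level class (mean CPM over the 6 UV libraries) called higher or lower on UV day 10, with the number called above each bar. Falls take 41.8% of the 100 to 1000 CPM class and 41.9% of the class of 1000 CPM or more, against 21.3% and 14.5% for rises.

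The share of all UMIs held by these genes shows the weight of the step. Genes called higher held 26.9% ± 0.818 of UMIs in UV day 10 libraries and 16.2% ± 0.575 in UV day 7 libraries (SD, n = 3 each). Genes called lower held 25.2% ± 0.593 in UV day 10 libraries and 39.5% ± 0.980 in UV day 7 libraries (SD, n = 3 each). As the genes were chosen by this contrast, no test is given for these shares. The control libraries entered that choice through the low-count filter and the shared estimate of spread and not through the contrast itself, and there the shares lay in the same order. The genes called higher under UV held 25.5% ± 1.37 of UMIs in control day 10 and 16.6% ± 0.377 in control day 7 libraries. The genes called lower held 27.1% ± 1.51 and 40.7% ± 0.776 of UMIs in the same groups (SD, n = 3 each).

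A few genes carried the step at its extremes. By the naming rule 603 risen and 1352 fallen genes qualified, each at least 2-fold changed, at 5 or more UMIs on average over the 6 libraries, with no overlap between the days. From each direction the gene with the largest change and the most abundant gene are given. G35595 had 56.8, 40.9 and 36.1 CPM in UV day 10 replicates 1, 2 and 3, against 4.01, 0.770 and 2.79 CPM in UV day 7 replicates 1, 2 and 3. The groups lie far apart, with the UV day 10 libraries all above 36 CPM and the UV day 7 libraries all under 5. Its log2 fold change was 4.30 with SE 0.46, a 19.7-fold rise, and the edgeR adjusted p was 3.02e-06. Its day 7 level rested on 32 UMIs, of which replicate 3 held 24, and without that replicate the log2 fold change was 5.00. It was 3.27, a 9.63-fold rise, with all libraries thinned to equal depth, and 3.61 with the shallow UV libraries alone. In control cultures G35595 had 61.7, 50.8 and 38.8 CPM on day 10, against 9.65, 3.71 and 5.05 CPM on day 7, a log2 fold change of 2.94 with an edgeR adjusted p of 1.36e-05. It was thus high on day 10 in both arms.

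G21945 was among the most abundant transcripts of the alga. Its levels were 10749, 8210 and 10532 CPM in UV day 10, against 3222, 6154 and 5320 CPM in UV day 7 libraries. The lowest day 10 library stood above the highest day 7 library, and the shallow UV day 7 replicate 1 was the lowest of all. The log2 fold change was 1.00 with SE 0.23, and the edgeR adjusted p was 0.00303. The gene held 1.08%, 0.829% and 1.06% of all UMIs in UV day 10 libraries, against 0.303%, 0.576% and 0.496% in UV day 7 libraries. On day 13 it stood at 3558 ± 355 CPM under UV (SD, n = 3), under its day 10 level in every library.

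The gene with the largest fitted fall was G4691. It had 0 UMIs in every UV day 10 library, against 7, 25 and 44 UMIs in UV day 7 replicates 1, 2 and 3. With a floor of 3 UMIs over the day 10 group, it was at least 15.1-fold lower on UV day 10, and at least 5.78-fold lower without UV day 10 replicate 3. The edgeR adjusted p was 0.0410. It missed the threshold when any 1 of the 6 UV libraries was left out, with adjusted p from 0.0613 to 0.161. The call passed in 6 of the 20 alternatives that tested it. Control libraries had 0, 0 and 23 UMIs on day 10 and 0, 27 and 41 UMIs on day 7 in replicates 1, 2 and 3. The log2 change in control cultures was -0.85 with an edgeR adjusted p of 0.558. The difference of the steps did not pass, with an edgeR adjusted p of 0.922. A second identifier of this gene is shared by 2 genes, so reads could be divided between them and its value is uncertain.

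G38341 was the most abundant gene that fell by the rule. Its levels were 621, 758 and 782 CPM in UV day 10, against 1439, 1540 and 1485 CPM in UV day 7 libraries. The 3 day 7 libraries lay close together, and all were well above day 10. The log2 fold change was -1.05 with SE 0.11, and the edgeR adjusted p was 1.06e-09. On UV day 13 it was 630 ± 14.6 CPM (SD, n = 3).

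The same interval without UV gave a step of like extent. Between control day 10 and control day 7, 6474 genes (35.6%) passed the threshold in edgeR. Of these, 2758 (15.2%) were higher on control day 10 and 3716 (20.4%) were lower. The UV and the control step use no library in common, although they share the split of shallow and deep day 10 replicates. Deviations from the group means were correlated across genes at r = 0.230 between replicate 3 of UV day 10 and of control day 10, and at -0.117 to -0.086 between replicate 3 of 1 arm and UV or control replicates 1 and 2 of the other. The part of these shared deviations in the likeness of the steps was not tested. Across 18196 genes the log2 changes of the 2 steps correlated at r = 0.824, a description over genes that are not independent. Of the 3303 genes that rose under UV, 2006 (60.7%) also passed as higher in control cultures, where 15.2% of all genes did. Of the 3600 that fell under UV, 2937 (81.6%) also passed as lower in control cultures, where 20.4% of all genes did. The 3 control day 10 libraries stood entirely above those of control day 7 for 2263 of the 3303 genes that rose under UV. They stood entirely below them for 3067 of the 3600 genes that fell under UV. Over all 18196 genes tested they stood above for 3787 (20.8%) and below for 4606 (25.3%). Counted from the control lists, 72.7% of the 2758 rises and 79.0% of the 3716 falls were shared.

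The share was lower for rises than for falls in 11 of 12 settings, this one included, and total-count scaling was the exception. Over all genes, too, fewer passed as higher than as lower in control cultures in each setting but total-count scaling. There 81.8% of the UV rises and 72.4% of the UV falls passed in the same direction in control cultures, where 30.4% of all genes passed as higher and 13.7% as lower. With replicate 3 alone as day 10 the shares were 48.7% and 78.8%, where 8.90% and 16.7% of all genes passed. The median log2 change of the genes that rose under UV was 0.66 in UV and 0.49 in control cultures. That of the genes that fell was -0.87 in UV and -0.79 in control cultures, against 0.03 and 0.00 for all genes tested. These lists were drawn from the UV libraries. For the genes called in control cultures the medians were 0.62 in UV and 0.62 in control for rises, and -0.77 in UV and -0.82 in control for falls.

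**Figure D3:**
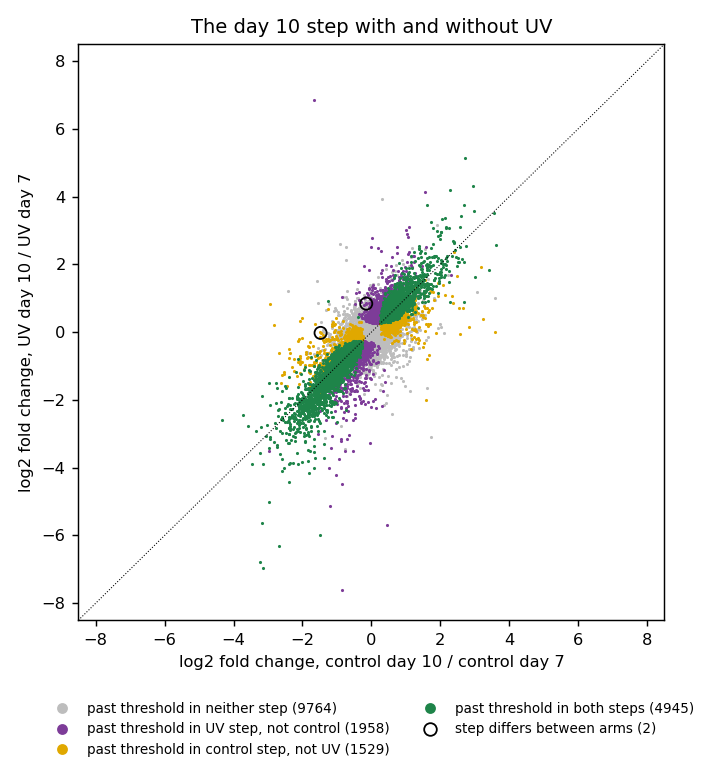
Each point is a gene, with its log2 fold change of day 10 over day 7 in UV cultures (vertical) and in control cultures (horizontal), and the dotted line marks equal change. The 2006 genes that passed as higher and the 2937 that passed as lower in both steps lie along that line, and circles mark the 2 genes whose step differed between the arms.

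Genes that moved in opposite directions in the arms were few. G8221 and G8598 rose under UV and fell in control cultures, with adjusted p under the threshold in each arm, and are named for that after their values were seen. The log2 change of G8221 was 0.45 in UV and -0.40 in control cultures, and that of G8598 was 0.93 and -1.26. The difference of their steps did not pass, with edgeR adjusted p of 0.109 and 0.483. No gene fell under UV and rose in control cultures past both thresholds in this edgeR fit, while 1 did under total-count scaling, 1 with replicates 1 and 2 alone as day 10 and 4 without a low-count filter.

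Whether the step itself differed between UV and control cultures was tested as an interaction. In edgeR's quasi-likelihood test 2 genes (0.011%) passed, both with a higher step under UV. An unadjusted p under 0.05 was found for 990 genes (5.44%), 620 (3.41%) with a higher and 370 (2.03%) with a lower step under UV. If no step differed, a share of about 0.05 of the genes would fall under that p. The median difference of all genes was 0.03 under TMM and -0.09 under total-count scaling, so its sign rested on the scaling. The split into 620 and 370 was taken under TMM only. DESeq2 called 12 of the 3732 genes to which it gave an adjusted p, limma-voom 2 of 18196, and an edgeR fit without a low-count filter 45 of 31094. A difference of steps carries the spread of 4 groups of 3 libraries, and a p that misses the threshold does not show equal steps.

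G30571 held its level under UV while it fell in control cultures. It had 70.3, 61.3 and 64.9 CPM in UV day 10, against 79.1, 51.6 and 74.3 CPM in UV day 7 libraries. In control cultures it had 43.2, 44.9 and 38.1 CPM on day 10, against 136.5, 96.4 and 108.3 CPM on day 7. The UV groups overlap, and the control groups lie far apart. The log2 change was -0.02 with SE 0.14 under UV and -1.47 with SE 0.15 in control cultures. The steps differed by 1.45 on the log2 scale with SE 0.21, and the edgeR adjusted p was 0.000455. It missed the threshold in 1 of 25 alternatives, with replicate 3 alone as day 10, where the adjusted p was 0.127. On day 7 the UV libraries were already all under the control libraries. Another gene shares its second identifier, so its value is uncertain.

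G5644 rose under UV and did not pass in control cultures. It had 187, 223 and 213 CPM in UV day 10, against 98.1, 119.9 and 123.4 CPM in UV day 7 libraries. In control cultures it had 163, 118 and 144 CPM on day 10, against 150.5, 160.2 and 158.6 CPM on day 7. All UV day 10 libraries stood above those of every other group, while the control days overlap. The log2 change was 0.84 with SE 0.13 under UV and -0.15 with SE 0.13 in control cultures. The difference between the steps was 0.99 (SE 0.18), and its edgeR adjusted p of 0.0426 was close to the threshold. It missed the threshold in 14 of 25 alternatives, among them 10 of the 12 that leave out 1 library, where the adjusted p was at most 0.168. The exceptions were the fits without UV day 10 replicate 1 and without control day 10 replicate 1.

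The most abundant UV genes whose control libraries overlapped between the days were also taken. They were G21945, of 106 such genes among the 603 rises that met the naming rule, and G2661, of 121 among the 1352 falls. Over all 18196 genes tested, control day 10 libraries stood entirely above control day 7 for 20.8% and entirely below for 25.3%. The rest overlapped. G21945 had 9315, 11202 and 9325 CPM in control day 10, against 8079, 11915 and 6739 CPM in control day 7 libraries. Its control step had a log2 change of 0.16 with an edgeR adjusted p of 0.632. UV day 7 libraries lay under all control day 7 libraries, and by day 10 the arms overlapped. G2661 had 21.1, 11.4 and 19.6 CPM in UV day 10, against 36.0, 46.2 and 31.3 CPM in UV day 7 libraries. In control cultures it had 40.6, 31.7 and 28.3 CPM on day 10, against 39.4, 37.5 and 50.1 CPM on day 7. Its log2 change was -1.07 under UV with an edgeR adjusted p of 1.79e-05, and -0.44 in control cultures with an adjusted p of 0.0344. For neither gene did the difference of the steps pass, with edgeR adjusted p of 0.829 for each.

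**Figure D4:**
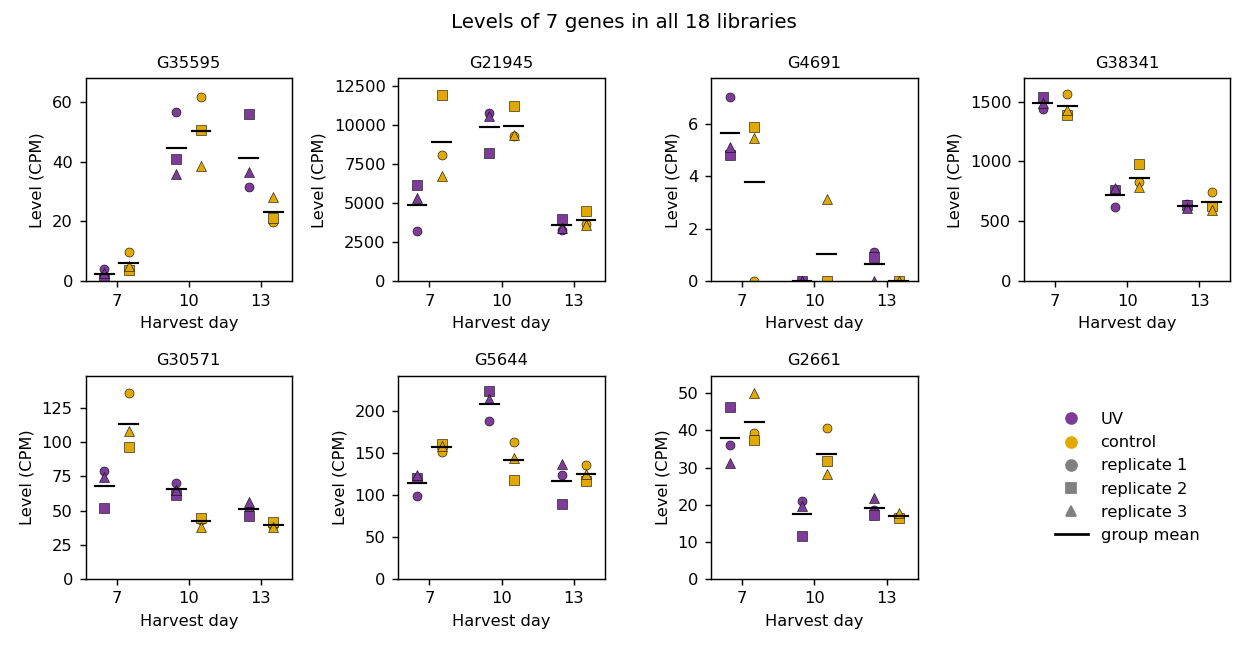
Levels of 7 genes in CPM in all 18 libraries by harvest day, UV left of control, with a symbol for each replicate and a line at each group mean. G30571 is level under UV and drops in control cultures between days 7 and 10, and G5644 is highest in the 3 UV day 10 libraries.

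Levels on day 13 show where the genes of the first step stood at the next harvest, and since the UV day 10 and day 7 libraries chose the genes, no test is given. The median log2 CPM of the 3303 risen genes was 4.35 ± 0.02 on UV day 7, 5.02 ± 0.04 on UV day 10 and 5.10 ± 0.02 on UV day 13 (SD, n = 3 each). That of the 3600 fallen genes was 5.44 ± 0.06, 4.59 ± 0.02 and 4.40 ± 0.06 on the same days. Across all genes tested the median was 4.23 ± 0.02, 4.26 ± 0.00 and 4.29 ± 0.01. As lists, the risen and the fallen genes were thus no nearer to their day 7 level on day 13 than on day 10. In control cultures the risen genes had medians of 4.40 ± 0.03, 4.95 ± 0.08 and 5.06 ± 0.01 on days 7, 10 and 13, and the fallen genes 5.55 ± 0.05, 4.76 ± 0.06 and 4.31 ± 0.03 (SD, n = 3 each). Named genes did not all keep to this, as G21945 was back under its day 7 mean by day 13.

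**Figure D5:**
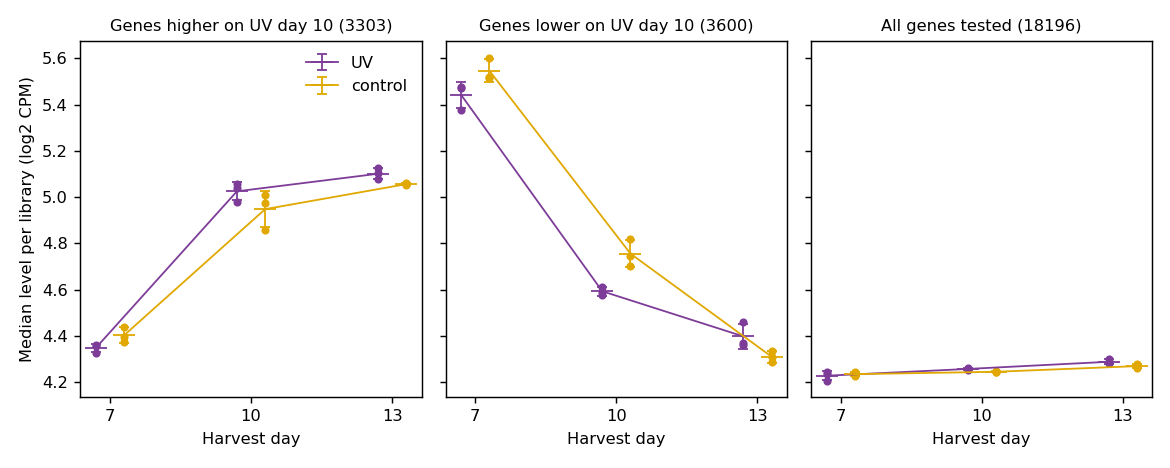
Median log2 CPM per library over the genes called higher, the genes called lower and all genes tested, by harvest day, UV left of control, with points for libraries, bars for the mean and error bars for the SD (n = 3). The genes were chosen by the UV change between days 7 and 10, so the size of that change is set by the choice, while the median of all genes stays near 4.2 to 4.3.

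Within the UV libraries of days 7 and 10, some transcripts were seen on 1 of these days only. Control and day 13 libraries did not enter these counts. G8314, with 0 UMIs on UV day 7, had 747 UMIs on UV day 13. Of the genes with a UMI on UV day 7, 3255 had 0 UMIs in all UV day 10 libraries, and 1123 genes went the other way, with 0 UMIs on UV day 7 and a UMI on day 10. In either set the median gene had 1 UMI in all on the day it was seen. The UV day 7 libraries held more UMIs in sum than the UV day 10 libraries, and at such counts absence was not detectable. Of those seen on UV day 7 and not on UV day 10, 9 were kept by the low-count filter, which used all 18 libraries, and 6 passed. Of those seen on UV day 10 and not on UV day 7, 3 were kept by that filter and 3 passed. Among all 18196 genes tested, 37.9% passed. The UV libraries that chose these genes are also those of the test, so passing was largely set by the choice. No conclusion on transcripts limited to a day is drawn from these counts.

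In the authors' deposited table of this comparison, made with DESeq2, 5573 of 20313 genes had an adjusted p under 0.05. The authors' deposited table listed 2373 of these as higher and 3200 as lower on UV day 10. Of the 6903 genes called here, 5496 were also called in the authors' deposited table, all with the same direction, which is 79.6% of the genes called here and 98.6% of those in the table.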

How the data were processed

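RNA of 18 cultures was made into MARS-seq2.0 libraries, per the labels' protocols. The authors deposited matrices of UMI counts and of read counts per gene, whole numbers without normalization, and a table of their own comparisons, per the file headers. That deposited table gives a log2 fold change and an adjusted p-value for each gene, from DESeq2 by the name of the file. The sources used here name no aligner, genome build or counting tool, nor whether strand was used. A further 54 per-library columns of that table were not used. Of 41734 genes, 19234 carry a second identifier, and 1543 of these share it with another gene. The headers call the first identifier the old gene and the second the new gene, and how they relate is not stated.

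The UMI counts were tested with edgeR 4.0.16 in R 4.3.3: TMM scaling, robust estimation of the spread, a quasi-likelihood F-test (two-sided), 1 mean per group in a fit of all 18 libraries, and Benjamini-Hochberg adjustment over all genes tested. filterByExpr (minimum count 10, minimum total 15) kept 18196 genes with 99.7% to 99.8% of each library's UMIs. SE was taken as the absolute log2 change over the square root of F. Log2 CPM used a prior count of 2. A bound against 0 UMIs takes a floor of 3 UMIs over the group and covers counting error only. limma 3.58.1 and DESeq2 1.42.0 served as alternatives. The pipeline was tested on simulated counts with known changes.

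Named genes per direction are the largest change and the most abundant gene at least 2-fold changed, at 5 or more UMIs on average, with no overlap between the days. The most abundant such gene whose control libraries overlap is added, and for the difference of steps the smallest p-values past the threshold. The members, rules and tests were chosen with earlier results of these data known. Nothing in the labels says that replicates came from separate starter cultures, so p-values measure the spread between these libraries, which may be technical.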

Additional observations from a re-analysis of the deposited data

Results flagged for a closer look

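The steps of G30571 and G5644 differed between the arms by the interaction test. For G30571 the difference between the UV step and the control step was a log2 value of 1.45 (SE 0.21), at an adjusted p of 0.000455 in edgeR. Over 25 alternatives it ranged from 1.26 to 1.58 with adjusted p from 3.07e-10 to 0.127. For G5644 it was 0.99 (SE 0.18), at an adjusted p of 0.0426 in edgeR. Over 25 alternatives it ranged from 0.87 to 1.19 with adjusted p from 3.05e-05 to 0.381. All 3 UV day 10 libraries were above all 3 control day 10 libraries for both genes, and all 3 UV day 7 libraries were under all 3 control day 7 libraries. The test that chose both genes used these same libraries, so the choice favours such an order. How many of all genes share it was not counted.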

How the results depend on the processing

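Over 21 alternatives the UV step gave 1983 to 7433 genes, against 6903, and 0 of the calls shared with the reported list changed direction. It gave 4080 genes with all libraries thinned to the shallowest (1060640 UMIs) and 1983 with the shallow UV libraries alone, which are both shallower and fewer. Leaving out 1 UV library gave 5510 to 6811 genes. Direction was compared only for genes called in both fits, mostly on shared libraries, so a reversal was hardly possible there. The control step gave 3755 genes when thinned, against 6474, and 5291 to 6035 when 1 control library was left out. The difference of the steps gave 2 genes, and 1 with total-count scaling, 1 with read counts, 4 when thinned, 5 with replicates 1 and 2 alone as day 10, 12 with DESeq2, 45 without a low-count filter, and 1 to 4 when 1 library was left out (4 without control day 10 replicate 3; 2 without UV day 7 replicate 3, UV day 10 replicate 1 or 3, or control day 10 replicate 1; 1 without any other). With replicate 3 alone as day 10 edgeR gave 0, with 956 genes at an unadjusted p under 0.05. The cause of these differences was not tested. The replicate numbers were not read as pairs, because no label says that a number marks a shared batch. Same-numbered libraries of UV day 10 and UV day 7 did not deviate together (r = 0.030, -0.0087 and 0.012 across genes). With the replicate number as a block the counts were 6855, 2 and 6555 for the UV step, the difference of steps and the control step, and of the named genes G4691 alone lost its call, with an edgeR adjusted p of 0.0562. The shares of UMIs follow the list: genes called higher held 35.4% in UV day 10 and 22.8% in UV day 7 libraries under total-count scaling, and 23.0% and 13.4% when thinned. Genes called lower held 21.1% and 34.6%, and 22.0% and 35.5%, in the same order. The size of the G35595 rise was a log2 change of 3.27 when thinned and 3.61 with the shallow UV libraries alone.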

Other observations

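The largest fitted rise of the UV step belonged to a gene under the UMI minimum of the naming rule, and it was chosen after its values were seen. G8314 had 7, 7 and 13 UMIs in UV day 10 replicates 1, 2 and 3, against 0 UMIs in every UV day 7 library. With a floor of 3 UMIs over the day 7 group it was at least 15.1-fold higher on UV day 10, and at least 6.31-fold and 9.78-fold higher without UV day 7 replicate 3 or replicate 2. The edgeR adjusted p was 1.35e-06, and it passed in 18 of the 19 alternatives that tested it, the exception being the shallow UV libraries alone (adjusted p 0.0949). Control day 10 libraries had 0 UMIs, and control day 7 libraries 1 in all. On day 13 it stood at 54.7 ± 10.3 CPM under UV and 3.27 ± 0.923 CPM in control cultures (SD, n = 3 each), with 169, 368 and 210 UMIs against 22, 13 and 28. The difference of the steps from day 7 to day 10 did not pass, with an edgeR adjusted p of 0.821.

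Genes that share a second identifier did not always move together. Of 468 second identifiers with at least 2 tested genes, 84 had every gene called in the UV step. In 66 of these all genes moved in the same direction, and in 18 they moved in opposite directions. The control step, with other libraries, gave the same 2 directions by sign for 17 of the 18, and every gene passed there in 11. By sign alone the control step also went the same way for 3208 of the 3303 risen and 3569 of the 3600 fallen genes, so such a count is near the general share. The pair with the largest rise, chosen after the values were seen, was G21920 with a log2 change of 3.37 and G21921 with -0.38 on UV day 10, against 2.13 and -0.59 in control cultures. Of the 991 tested genes that share a second identifier 37.5% were called, against 37.9% of all genes tested.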
